A study of Mus musculus with 4 samples.

Results

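Mmp3 and Igfbp3 fibroblasts are stromal cells of the mouse prostate that were picked by their RNA in single-cell libraries. A cell belonged to the fibroblast gate when Dcn, Col1a1, Col1a2 and Col3a1 together reached at least 20 per 10000 of its UMIs (unique molecular identifiers, each standing for 1 captured RNA molecule), Cdkn2a, Crabp1 and Stmn2 together stayed under 10, and no UMI of the leukocyte gene Ptprc was found. Within the gate, members had under 3 per 10000 of Lgr5 and Wif1, at least 5 of Mmp3, Igfbp3 and Epyc together, and more of those 3 than of Sult1e1, Col6a5 and C7 together. This rule gave 1659 members among 6624 gate cells and 31165 kept cells. Because the rule read these genes, their levels describe the members and test nothing.

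The cells came from 4 libraries, 1 per group, of dissociated prostates profiled with the 10x Chromium 3' kit. The Trp53-deleted ADT group had the genotype written Trp53PC-/-, ADT and an age of 5.5 months, and the Trp53-deleted group had the same genotype, no ADT and an age of 3.5 months. The Trp53-intact ADT group had no Trp53 deletion, ADT and an age of 5.5 months, and the Trp53-intact group had neither and an age of 4 months. ADT is read here as androgen deprivation therapy, which the labels do not spell out, and they do not say how many animals went into a library. PC is not explained in the labels either and is read here as a deletion limited to the prostate, and they do not say in which of its cells it acts. Each group is 1 library, so effects of ADT, of age and of the library itself cannot be told apart. The same holds for genotype against library, and no test or p-value is given.

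Fibroblasts of the prostate build the matrix around the glands and pass growth signals to the epithelium. Mmp3 (stromelysin-1) is a secreted protease that cuts proteoglycans, fibronectin and other matrix proteins, and it can activate other matrix proteases. Igfbp3 is a secreted carrier that binds insulin-like growth factors and limits their access to the receptor. Epyc (epiphycan) is a small leucine-rich proteoglycan best known from cartilage, and Apod (apolipoprotein D) is a lipocalin that carries small lipids.

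The windows of 250 bases just before the annotated starts of the 2 genes that name these cells are shown because Mmp3 is a textbook target of AP-1, the dimer of Fos and Jun proteins whose genes are reported further on. They are from RefSeq on GRCm38.p6, 5′ to 3′ on the strand of the gene, at chr9:7445572-7445821 on the plus strand for Mmp3 and at chr11:7213924-7214173 on the minus strand for Igfbp3. Capitals mark the AP-1 letters TGANTCA, which read the same on both strands and were searched on both.
Mmp3: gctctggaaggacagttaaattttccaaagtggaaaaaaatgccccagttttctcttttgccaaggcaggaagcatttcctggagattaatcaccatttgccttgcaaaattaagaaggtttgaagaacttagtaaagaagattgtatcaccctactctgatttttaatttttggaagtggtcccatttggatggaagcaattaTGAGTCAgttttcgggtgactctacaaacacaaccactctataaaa
Igfbp3: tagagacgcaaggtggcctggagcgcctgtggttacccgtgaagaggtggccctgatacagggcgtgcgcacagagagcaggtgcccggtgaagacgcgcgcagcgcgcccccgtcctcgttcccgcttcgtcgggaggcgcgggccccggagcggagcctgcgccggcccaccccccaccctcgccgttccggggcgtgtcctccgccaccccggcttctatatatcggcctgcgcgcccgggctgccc
The Mmp3 window held the letters once, with the first base 46 bases before the start, and those of Igfbp3, Epyc and Apod did not hold them. Of 32851 such windows, 2217 (6.75%) held them, and a match of letters is a description, not a site.

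Igfbp3 was found in more members than Mmp3 or Epyc in 3 of the libraries, and Epyc in the most members of the Trp53-intact library. Igfbp3 had 1498 CPM (counts scaled by the summed UMIs of the members, the usual library-size scale) in the Trp53-deleted ADT library, 991 in Trp53-deleted, 2099 in Trp53-intact ADT and 1002 in Trp53-intact. It was found in 82.9% of the members in Trp53-deleted ADT, 58.2% in Trp53-deleted, 84.5% in Trp53-intact ADT and 46.9% in Trp53-intact. Mmp3 was at 909.8, 515, 743 and 343 CPM in the same order, in 33.1%, 25.5%, 38.4% and 16.6% of the members. Thus most members held no Mmp3 UMI in any library. Epyc went the other way, with 245 and 440.1 CPM in the ADT libraries of Trp53-deleted and Trp53-intact mice, against 711 and 695 CPM in those without ADT. Neutrophil-gate cells, which should lack all 3 genes and so show free RNA, had 0.80 to 9.89 CPM of Mmp3, 9.66 to 48.2 of Igfbp3 and 2.29 to 6.44 of Epyc over the libraries.

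Apod, a marker named for these cells, was higher in members than in the gate cells under no rule in 3 of the libraries. It had 4209 CPM in members of Trp53-deleted ADT against 1239 in those cells, 8352 against 4190 in Trp53-deleted, and 9595 against 4327 in Trp53-intact ADT. In Trp53-intact it was lower in members, at 1405 CPM, than in the gate cells under no rule at 2309 and in the Sult1e1 and C7 fibroblasts at 3248. Igfbp3 is not particular to the rule either, since the Lgr5 and Wif1 fibroblasts had 1761 CPM in Trp53-deleted ADT and 1845 in Trp53-intact ADT. Of 16 further fibroblast genes, none of them in the rule, 3 or more were found in 91.2%, 94.9%, 96.8% and 93.1% of the members of Trp53-deleted ADT, Trp53-deleted, Trp53-intact ADT and Trp53-intact.

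Some members rested on very few UMIs. Their median UMI count was 5059, 5003.5, 8871 and 4370 in Trp53-deleted ADT, Trp53-deleted, Trp53-intact ADT and Trp53-intact, against 2357.0, 6131, 7969.5 and 3072 over the whole gate, and 31.5%, 26.5%, 14.7% and 38.3% had under 2000 UMIs. In cells of up to 2000 UMIs a single UMI meets the threshold, and 115, 10, 54 and 39 members were in on 1 UMI. Just inside the threshold, at 5 to under 7 per 10000, were 57, 5, 55 and 16 members, and just outside, at 3 to under 5, were 80, 7, 76 and 15 gate cells. No cell barcode was shared between libraries among members, against 12 to 29 per pair of libraries among all kept cells. The summed members held 3814152, 611623, 7369149 and 1273046 UMIs, so that 3 counts stand for 0.787, 4.90, 0.407 and 2.36 CPM, and all intervals here cover counting error only.

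Members made up a larger share of the fibroblast gate in both ADT libraries than in the libraries without ADT. The share was 34.2% (543 of 1587 cells, exact Clopper-Pearson 95% interval 31.9 to 36.6) in Trp53-deleted ADT, against 5.73% (98 of 1710, 4.68 to 6.94) in Trp53-deleted. In Trp53-intact ADT it was 55.0% (843 of 1532, 52.5 to 57.5), against 9.75% (175 of 1795, 8.42 to 11.2) in Trp53-intact. Sult1e1 and C7 fibroblasts showed the reverse, at 0.504% in Trp53-deleted ADT against 66.3% in Trp53-deleted and at 1.37% in Trp53-intact ADT against 48.9% in Trp53-intact.

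**Figure D1:**
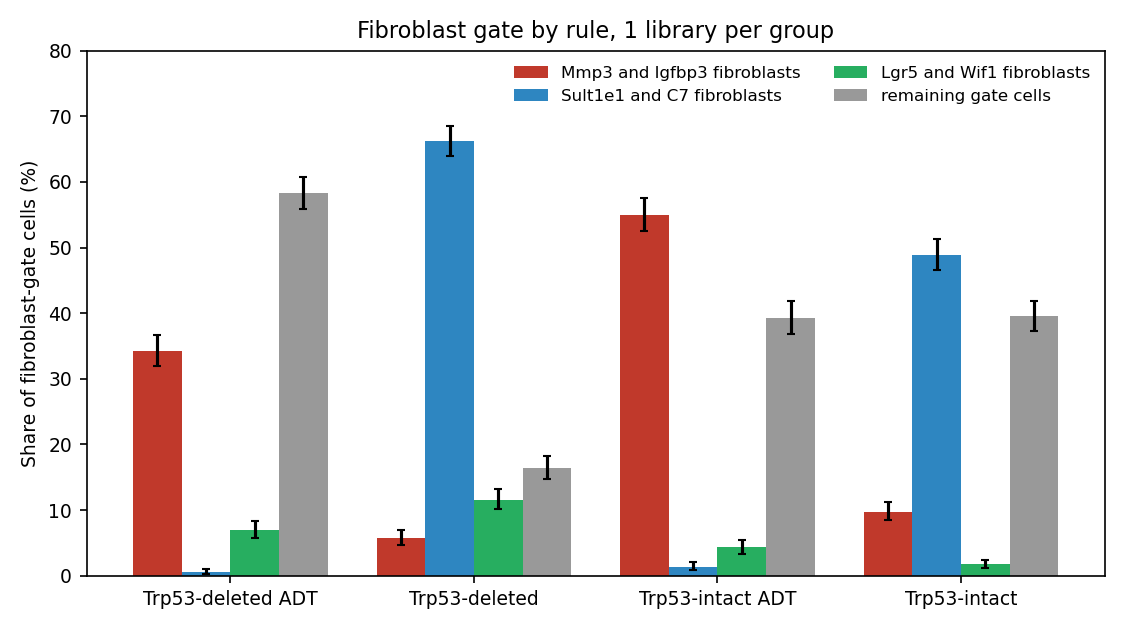
Share of fibroblast-gate cells (y axis, percent) that fall under each rule, for the 4 libraries (x axis); bars are shares of cells and error bars exact 95% binomial intervals. Members reach 34.2% and 55.0% with ADT and stay at 5.73% and 9.75% without, while the Sult1e1 and C7 fibroblasts are nearly absent with ADT.

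These shares rest partly on the genes compared against. Without the condition on Sult1e1, Col6a5 and C7, which took out 4 cells in Trp53-deleted ADT and 239 in Trp53-deleted, 10 in Trp53-intact ADT and 180 in Trp53-intact, the shares were 34.5% against 19.7% and 55.7% against 19.8%. Since cells were placed by their RNA of these genes, a loss of cells of one kind and a lower level of its genes per cell cannot be told apart. With gate cells thinned to 2000 UMIs, which left out 733 shallower cells in Trp53-deleted ADT, 341 in Trp53-deleted, 421 in Trp53-intact ADT and 775 in Trp53-intact, members were 51.5% of Trp53-deleted ADT against 6.72% of Trp53-deleted and 69.4% of Trp53-intact ADT against 11.3% of Trp53-intact. In Trp53-deleted ADT, 1499 further collagen-positive cells failed the condition on Cdkn2a, Crabp1 and Stmn2, against 26, 24 and 61 in the other libraries, which changes the denominator there.

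The 3 genes that define the rule were often found singly. In Trp53-deleted ADT 33.5% of members held UMIs of at least 2 of them, against 30.6% in Trp53-deleted, and in Trp53-intact ADT 56.0%, against 24% in Trp53-intact. All 3 were found together in 27, 4, 114 and 0 cells of the libraries in the order above. Members with Igfbp3 alone were 53.6% in Trp53-deleted ADT against 34.7% in Trp53-deleted, and 36.2% in Trp53-intact ADT against 31.4% in Trp53-intact. Members with Epyc alone were 3.31% against 21.4%, and 3.56% against 38.9%.

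Among members with at least 2000 UMIs, Igfbp3 had the most UMIs of the 3 genes in 230 cells (61.8%) of Trp53-deleted ADT against 31 (43.1%) of Trp53-deleted, and in 435 (60.5%) of Trp53-intact ADT against 40 (37.0%) of Trp53-intact. Epyc led in 43 (11.6%) against 26 (36.1%), and in 123 (17.1%) against 54 (50%). Mmp3 led in 92 (24.7%) against 13 (18.1%), and in 149 (20.7%) against 13 (12%). The mixture under the rule therefore differed between libraries, and values of the Igfbp3-led cells alone are given beside several of the group comparisons.

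**Figure D2:**
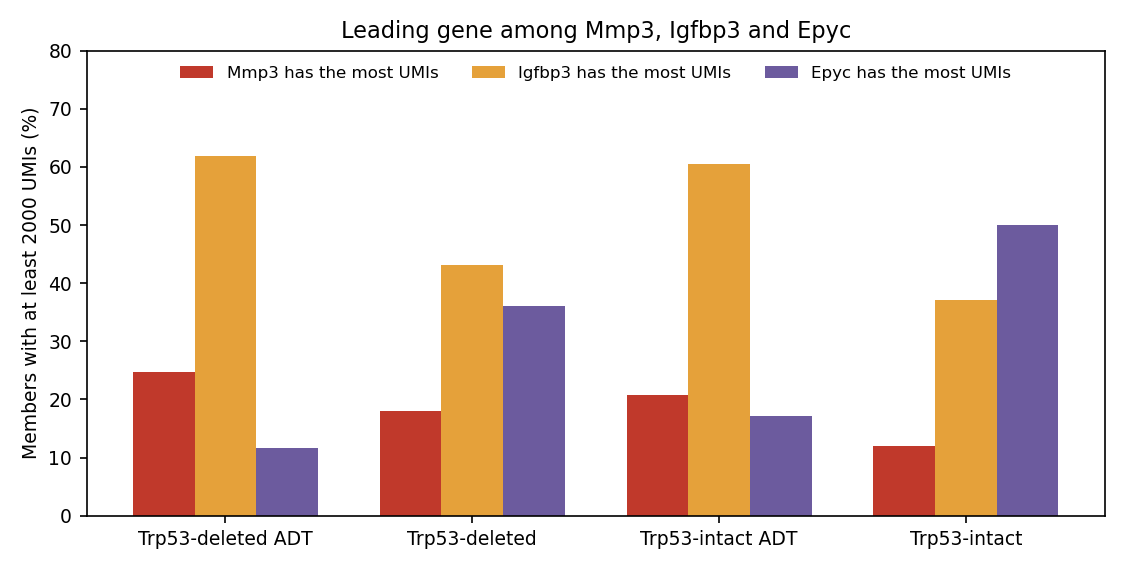
Share of members with at least 2000 UMIs (y axis, percent) in which Mmp3, Igfbp3 or Epyc has the most UMIs, by library (x axis). Igfbp3 leads in 61.8% and 60.5% of the cells with ADT, and Epyc in 36.1% and 50% of those without.

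Mmp3-led and Igfbp3-led members carried different further genes, a comparison chosen after these values were seen and given as a description. Of 10112 measured genes, 17 (0.168%) were at least 2-fold higher and 32 (0.316%) at least 2-fold lower in Mmp3-led cells in every library. Without the Trp53-intact ADT library these numbers were 59 and 99. Mmp3-led cells were higher than Igfbp3-led cells in genes known from the fibroblasts of adventitia and fascia. Pi16, a marker of adventitial fibroblasts, had 1349.7 CPM in Mmp3-led against 445 in Igfbp3-led cells of Trp53-deleted ADT, 2673 against 145 in Trp53-deleted, 262 against 111 in Trp53-intact ADT and 1983 against 491 in Trp53-intact. Adamts5, a protease that cuts aggrecan and versican, had 321 against 51.4, 1726 against 114, 320.3 against 69.8 and 372 against 62.1 CPM in the same order. For Adamts5 the lowest Mmp3-led value stood above the highest Igfbp3-led value. Fbn1 (fibrillin-1, the core of microfibrils) had 965 against 227, 980.3 against 175, 140.0 against 64.7 and 1249 against 373 CPM. Also in this set were Cd248 (endosialin), Ptx3 (a secreted pentraxin), Has1 (a hyaluronan synthase), Tnfaip6 (which binds hyaluronan), Prg4 (lubricin), the chemokine Ccl7 and the chemokine scavenger Ackr3. Of 19 measured universal fibroblast genes, a list that holds Pi16, Dpp4, Cd34, Ly6a and Clec3b, 17 were above 0 on the log2 scale in every library. Of all 10112 genes 942 were. Epyc-led cells had 901 CPM of Pi16 in Trp53-deleted ADT, 498 in Trp53-deleted, 259 in Trp53-intact ADT and 397 in Trp53-intact. Adamts5 had 120, 141, 165 and 162 CPM in them and Fbn1 534, 260, 197 and 808, in the same order. These lie above the Igfbp3-led values except for Pi16 in Trp53-intact, so these genes are not particular to Mmp3-led cells.

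The 32 genes higher in Igfbp3-led members were of several kinds. Fmo2, a flavin monooxygenase, had 157 CPM in Mmp3-led against 721 in Igfbp3-led cells of Trp53-deleted ADT, 402 against 937 in Trp53-deleted, 141 against 346 in Trp53-intact ADT and 126 against 428 in Trp53-intact. Hoxd13, a posterior Hox gene needed for the male accessory glands, had 15.5 against 92, 16.8 against 101, 14.9 against 46.4 and 5.73 against 47.1 CPM. Id1, a target of BMP signalling, had 26 against 192, 8.38 against 118, 62.9 against 184 and 11.5 against 178 CPM. The same direction held for Gli1 (a target of hedgehog signalling), the transcription factors Hand2 and Etv1, the water channel Aqp1, the methyltransferase Inmt, the growth factors Ptn and Pgf, and Inhba (the activin A subunit). Of 25 measured Wnt ligands and modulators 9 were below 0 in Mmp3-led cells in every library, as were 12 of 33 growth factors of stroma, against 1339 of all 10112 genes, but at 2-fold in every library there were 0 and 3 of them. Contractile genes and markers of other cells went the same way. Acta2 (smooth muscle actin), one of the 32, had 67.5 CPM in Mmp3-led against 188 in Igfbp3-led cells of Trp53-deleted ADT, 0 against 17.5 in Trp53-deleted, 12.7 against 96.7 in Trp53-intact ADT and 0 against 735 in Trp53-intact. Below 0 in every library were 8 of 15 myofibroblast genes, 5 of 11 smooth muscle and pericyte genes (Acta2, Synpo2, Mcam, Notch3 and Cspg4), 4 of 6 macrophage genes (C1qa, C1qb, Lyz2 and Ms4a7) and 2 of 7 endothelial genes, and the part of such cells in the comparison was not tested. The Mmp3-led sums of both libraries without ADT come from 13 cells each, and many of their values rest on fewer than 10 UMIs.

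**Figure D3:**
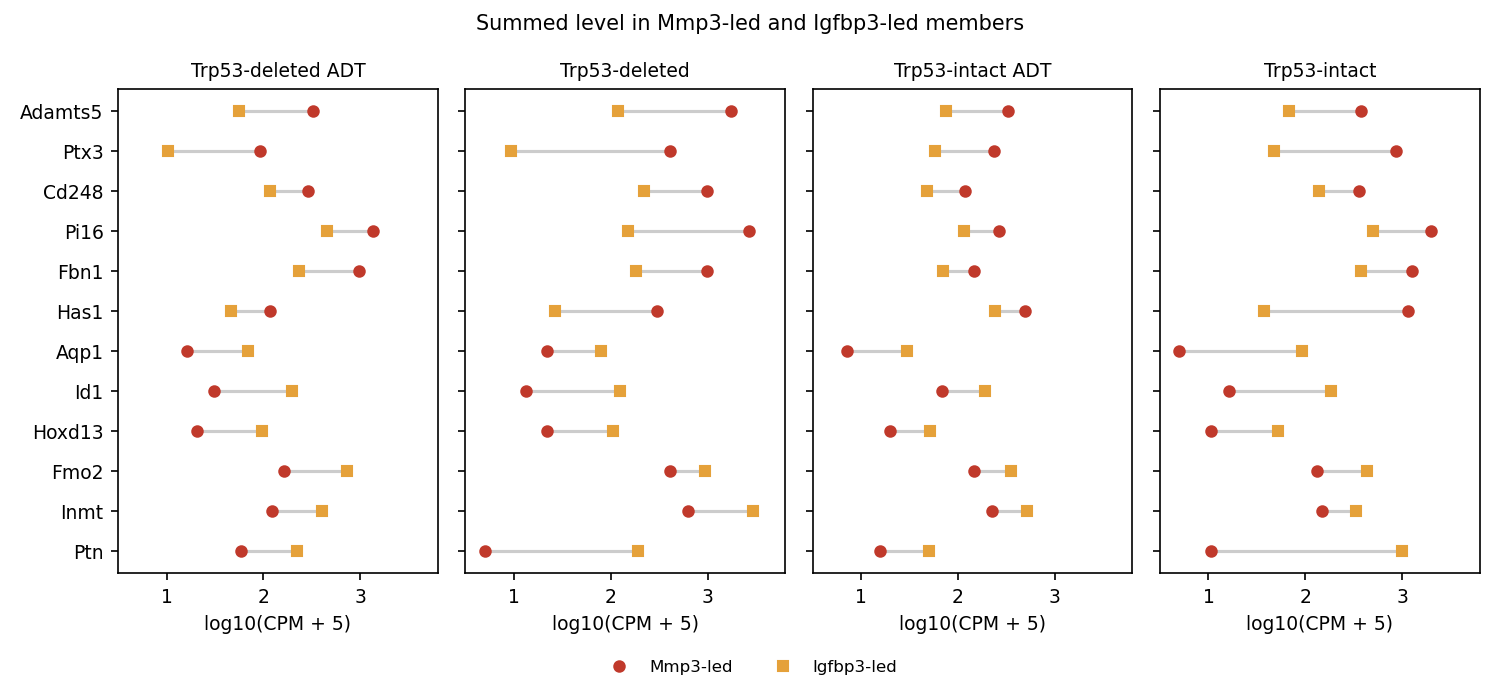
Summed level, log10(CPM + 5) on the x axis, of 12 genes (y axis) in Mmp3-led (circles) and Igfbp3-led (squares) members with at least 2000 UMIs, with 1 panel per library. Circles lie right of squares for Adamts5, Ptx3, Cd248, Pi16, Fbn1 and Has1, and left of them for Aqp1, Id1, Hoxd13, Fmo2, Inmt and Ptn.

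Beyond the rule genes, little set the members as a whole apart from the other gate cells. Only C1qtnf3, which encodes a secreted C1q and TNF related protein, was at least 2-fold higher in every library, 1 gene of 13576 (0.00737%). It had 74.2 CPM in members against 22.7 in other gate cells of Trp53-deleted ADT, 21.3 against 2.57 in Trp53-deleted, 14.4 against 4.33 in Trp53-intact ADT and 22.8 against 8.54 in Trp53-intact. Below it in rank came, among others, Serpina3g, Inhbb, the proteoglycan Lum, the Wnt receptor Fzd1, the Wnt inhibitors Sfrp1 and Dkk2, and Rspo3, a secreted enhancer of Wnt signalling, all less than 2-fold higher in at least 1 library. The 39 genes (0.287%) at least 2-fold lower in every library were led by epithelial genes such as Krt14, Krt15, Sfn, Epcam and Cldn4. Without Trp53-intact ADT 4 genes were higher and without Trp53-intact 2, and without Trp53-deleted ADT 62 were lower and without Trp53-deleted 65. Among cells of at least 2000 UMIs, and with other gate cells of high epithelial or mural RNA left out, 0 of 12770 genes (0%) were 2-fold higher and 0 (0%) 2-fold lower in every library. In that comparison 15 of 31 dissociation stress genes, Fos, Jun, Atf3 and Klf4 among them, were below 0 in every library, against 7.47% of all measured genes. Below 0 in every library were also 4 of 7 mesothelial, 3 of 6 B and plasma cell and 4 of 10 Schwann cell markers. Above 0 were 4 of 15 myofibroblast genes (Acta2, Tagln, Myl9 and Adam12), against 5.00% of all measured genes. Other gate cells high in Acta2, Rgs5 and Myh11 had been left out and such members had not, which itself lowers Acta2 in the cells compared against. The count for myofibroblast genes is therefore a description only.

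The members were also compared with the Sult1e1 and C7 fibroblasts, in the libraries without ADT, which hold enough of both. A gene had to pass 2-fold in these libraries only, whereas against other gate cells it had to do so in every library. The counts of the comparisons are therefore not ranked against each other. Of 11140 measured genes, 139 (1.25%) were at least 2-fold higher and 27 (0.242%) at least 2-fold lower in both libraries. Igfbp5, another IGF carrier, had 2456 CPM in members against 548 in Sult1e1 and C7 fibroblasts of Trp53-deleted, and 3882 against 721 in Trp53-intact. Cxcl14, a chemokine, had 301 against 53.3 and 1363 against 175 CPM. Igf1 ran the other way, at 1025 against 2698 and 1026 against 2554 CPM. Of 14 measured genes of the IGF axis 3 were 2-fold higher in both libraries, Igfbp5, Pappa and Pappa2, and 1 was lower, Igf1. Higher too were the collagen Col8a1, the heparin-binding factor Ptn, the surface glycoprotein Thy1, the ligand Wnt2 and the Wnt inhibitor Sfrp4, while Hp (haptoglobin), the chemokine Cxcl13 and Wt1 were lower. Of 14 myofibroblast genes 7 were 2-fold higher in both libraries and 0 lower. Markers of other cells were higher too, Kdr and Plvap among 7 endothelial genes (medians of 0.43 in Trp53-deleted and 1.58 in Trp53-intact) and Mcam and Cspg4 among 11 smooth muscle and pericyte genes (medians of 0.44 and 1.04), beside medians of 0.08 and 0.10 over all measured genes. Of 18 cell cycle genes 9 were, but Ube2c, which leads them, was found in 1 member of Trp53-deleted and 5 members of Trp53-intact.

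Markers of other cells in the members are given once here. Summed over a list, macrophage and monocyte genes had 549.8 CPM in Trp53-deleted ADT, 162 in Trp53-deleted, 125 in Trp53-intact ADT and 236 in Trp53-intact, and 34.1%, 9.18%, 5.46% and 8.57% of the members held 3 or more of the 13 genes. Epithelial genes had 109, 124, 279.5 and 518 CPM, and 4.97%, 2.04%, 12.5% and 22.9% of the members held 3 or more of the 15. Smooth muscle and pericyte genes had 379, 464, 398 and 638 CPM, endothelial genes 116, 105, 51.7 and 244, B and plasma cell genes 92.6, 271, 145 and 642, and neutrophil genes 171, 85.0, 169 and 47.9 CPM with Ly6g at 0 in all 4. Members with 3 or more smooth muscle and pericyte genes were 15.8%, 12.2%, 14.1% and 22.3%. Those with 3 or more B and plasma cell genes were 0.737%, 8.16%, 2.97% and 20.6%. Seminal vesicle genes had 486 CPM in Trp53-deleted, where 33.7% of members held 3 or more of the 8, and 6.28 to 16.7 CPM in the other 3. Cdkn2a was found in 28% of members in Trp53-deleted ADT, at 68.2 CPM, where neutrophil-gate cells had 145, against 1.02%, 2.14% and 5.14% in the other libraries. Of 9 Cdkn2a-high tumour-like genes, which include genes of the rule, 3 or more were found in 20.6% of members in Trp53-deleted ADT. In Trp53-deleted, Trp53-intact ADT and Trp53-intact these shares were 3.06%, 0.949% and 4%. Summed over that list, members had 459, 433, 300 and 452 CPM in the 4 libraries. The part of these in the results above and below was not tested.

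With ADT in Trp53-deleted mice, members held more RNA of myofibroblast and stress genes and less of Gsn, C3 and genes of universal fibroblasts. Of 8054 measured genes, 301 (3.74%) were at least 2-fold higher and 417 (5.18%) at least 2-fold lower, and the median gene lay at -0.11 on the log2 scale. The median-of-ratios factor between these libraries was -0.126 on that scale, and the values here are not corrected for it. Matrix genes were divided, with 7 of 56 matrix glycoproteins 2-fold higher and 12 lower (median -0.09). Mgp (matrix Gla protein, which inhibits calcification) had 23037 CPM with ADT against 4782 without, a ratio of 4.82 (conditional binomial 95% interval 4.64 to 5). Bgn (biglycan) had 3789 against 1226 CPM, a ratio of 3.09 (2.87 to 3.33). Timp1, an inhibitor of Mmp3 and other matrix proteases, had 1244 against 109.5 CPM, with 56.7% and 56.7% of its UMIs in the 5 highest cells. It was found in 52.3% of members with ADT against 27.6% without. Mfap4, a microfibril protein, had 860.0 against 165 CPM and was found in 47.5% against 24.5% of members.

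Of 14 measured myofibroblast genes 7 were 2-fold higher and 0 lower, with a median log2 ratio of 1.06, and of 2.51 in Igfbp3-led cells alone. Tagln, an actin-binding protein of contractile cells, had 202 CPM with ADT against 11.4 without, in 22.7% against 6.12% of members. Cthrc1, a secreted marker of matrix-producing fibroblasts, had 88.6 against 1.63 CPM, the second from a single UMI, a ratio of 54.2 with an interval of 9.66 to 2147. A few cells weighed heavily here, since the 5 highest ADT cells held 54.7% of the Tagln and 57.4% of the Cthrc1 UMIs. Neutrophil-gate cells of the ADT library had 45.9 CPM of Tagln and 91.8 of Acta2, against 136 CPM of Acta2 in members. Of 8 smooth muscle and pericyte genes 2 were higher, Acta2 among them, and 3 lower (median -0.64). Of 21 collagens outside the rule 1 was 2-fold higher and 3 lower, with a median of -0.03. With the collagens of the rule the median of 0.05 changed sign, to -0.35 with each cell counting equally and to -0.21 in Igfbp3-led cells, so no direction is given for them. Ltbp2, which binds latent TGF-beta and fibrillin, had 91 CPM with ADT against 4.9 without, in 17.1% against 2.04% of members.

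Among the genes lower with ADT in Trp53-deleted mice, Gsn and C3 were found in most members of both libraries. Gsn (gelsolin, which severs actin filaments) had 3933 CPM with ADT against 18717 without, a ratio of 0.21 (0.205 to 0.215). C3, the central complement protein, had 2584 against 6991 CPM, in 65% against 90.8% of members. Of 14 complement genes outside the rule 5 were 2-fold lower, C3, C4b, C1ra and C1s1 among them, and 3 higher, which were the macrophage genes C1qa, C1qb and C1qc. Inmt had 267 against 1687 CPM and the ferritin receptor Scara5 91.2 against 445 CPM. Of 19 universal fibroblast genes 8 were lower and 0 higher (median -0.75), with Clec3b at 378 against 1267 CPM. Among small leucine-rich proteoglycans outside the rule 4 of 9 were lower, with Ogn (osteoglycin) at 233 against 764 CPM, and 2 were higher (median -0.07). Growth factors of stroma gave 9 lower and 1 higher of 33. Angpt4, an angiopoietin, was found in 2.58% of members with ADT against 24.5% without.

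Dissociation stress genes were higher with ADT in Trp53-deleted mice, 11 of 30 by 2-fold and 0 lower, with a median of 0.64. Fos had 2379 CPM with ADT against 904 without, and Ier3 715 against 217. Neutrophil-gate cells had 2411 and 2366 CPM of Fos in the same 2 libraries. Of 17 cell cycle genes 6 were lower and 1 higher, but all UMIs of Top2a and of Mki67 in Trp53-deleted came from 1 cell. In Igfbp3-led cells 3 of the cell cycle genes were measured, of which 2 were higher and 0 lower (median 1.67). All 5211 genes measured in Igfbp3-led cells had a median of -0.005. Macrophage genes were higher, 4 of 8 by 2-fold and 0 lower, with Lyz2 at 207 against 45.8 CPM, as were 2 of 3 neutrophil genes, while 3 of 3 B and plasma cell genes were lower.

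With ADT in Trp53-intact mice, members held much less RNA of collagens and other matrix proteins and more of Apod and immediate-early genes. Of 9729 measured genes, 326 (3.35%) were at least 2-fold higher and 510 (5.24%) at least 2-fold lower. Of 27 collagens 22 were lower and 0 higher, with a median log2 ratio of -1.83, and without the 4 collagens of the rule 18 of 23 were lower with a median of -1.81. Col6a2, of the beaded-filament collagen, had 126 CPM with ADT against 533 without, a ratio of 0.236 (0.214 to 0.261). Col12a1, which binds fibrils of collagen I, had 53.6 against 596 CPM, in 16% against 37.1% of members. The same direction held when each cell counted equally (median -1.87) and in Igfbp3-led cells (median -2.12, 18 of 21 lower and 0 higher), both with the collagens of the rule. All 7928 genes measured in Igfbp3-led cells had a median of -0.06. Of the collagens that select the gate, Col3a1 had 1095 against 8438 CPM, whereas Dcn (decorin) had 19089 against 11526, so that Dcn made up most of the gate sum in the ADT members of Trp53-intact mice. Markers of other cells moved in this comparison too, with 5 of 6 endothelial genes lower (median -1.74), 3 of 3 B and plasma cell genes lower, 3 of 5 macrophage genes lower and 1 higher, and 3 of 3 neutrophil genes higher.

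Non-collagen matrix genes went with the collagens in Trp53-intact mice. Of 55 matrix glycoproteins 27 were lower and 2 higher (median -0.91). Sparc (osteonectin, a collagen-binding protein) had 1035 CPM with ADT against 7575 without, a ratio of 0.137 (0.133 to 0.141), and was found in 83.9% against 93.1% of members. Eln (elastin) had 44.2 against 452 CPM, but the 5 highest cells without ADT held 68.8% of its UMIs. Of 14 myofibroblast genes 10 were lower and 0 higher, with a median of -2.33, and of -2.93 in Igfbp3-led cells. Ctgf, a matrix signalling protein induced by TGF-beta, had 89 against 838 CPM. Of 19 universal fibroblast genes 8 were lower and 1 higher (median -0.83). In Igfbp3-led cells that median was -0.03.

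Among IGF carriers outside the rule, 4 had less RNA under ADT in members of Trp53-intact mice, each by more than 2-fold, and Igfbp4 had slightly more. Igfbp3 was higher too, but the rule reads it, so its level tests nothing. Igfbp5 had 845 CPM with ADT against 3882 without, Igfbp6 had 610.0 against 2026 and Igfbp7 976 against 3935. Igfbp3, a gene of the rule, had 2099 against 1002 and Igfbp4, less than 2-fold apart, 2088 against 1597. Igfbp2 had 10.7 against 549.9 CPM, with 81.4% of the UMIs without ADT in the 5 highest cells. Over the IGF axis outside the rule, 5 of 14 genes were 2-fold lower and 1 higher. In Trp53-deleted mice Igfbp5 had 1085 CPM with ADT against 2456 without and Igfbp6 567 against 1547, whereas Igfbp7 had 3508 against 1645.

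Apod had 9595 CPM with ADT against 1405 without in Trp53-intact mice, a ratio of 6.83 (6.52 to 7.16). In Trp53-deleted mice Apod went the other way, with a log2 ratio of -0.99 for ADT against no ADT, just short of 2-fold lower. In Trp53-intact mice Fosb had 3239.6 CPM with ADT against 558 without, Fos 5680.0 against 1287 and Egr1, another immediate-early transcription factor, 4696 against 1302. Neutrophil-gate cells had 2371 and 1434 CPM of Fos. Heat shock genes ran against them, with Hspa1b at 102 against 1169.6 CPM and Hspb1 at 159.9 against 1278. The stress list was split, 6 of 31 higher and 5 lower. Among steroid-response genes outside the rule 5 of 19 were higher and 0 lower (median 0.18). Mt2, a metallothionein that glucocorticoids induce, had 4536 against 1386 CPM and Cdkn1c, a cell cycle inhibitor, 186 against 76.2. Lipid genes gave 5 of 18 higher and 0 lower, Lpl (lipoprotein lipase) at 261 against 78.6 CPM. Inflammatory mediators gave 4 of 35 higher and 7 lower in all members, with Ccl2 at 296 against 2008 CPM, but 11 of 31 higher and 2 lower in Igfbp3-led cells. Of all 7928 genes measured in Igfbp3-led cells, 582 were at least 2-fold higher.

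**Figure D4:**
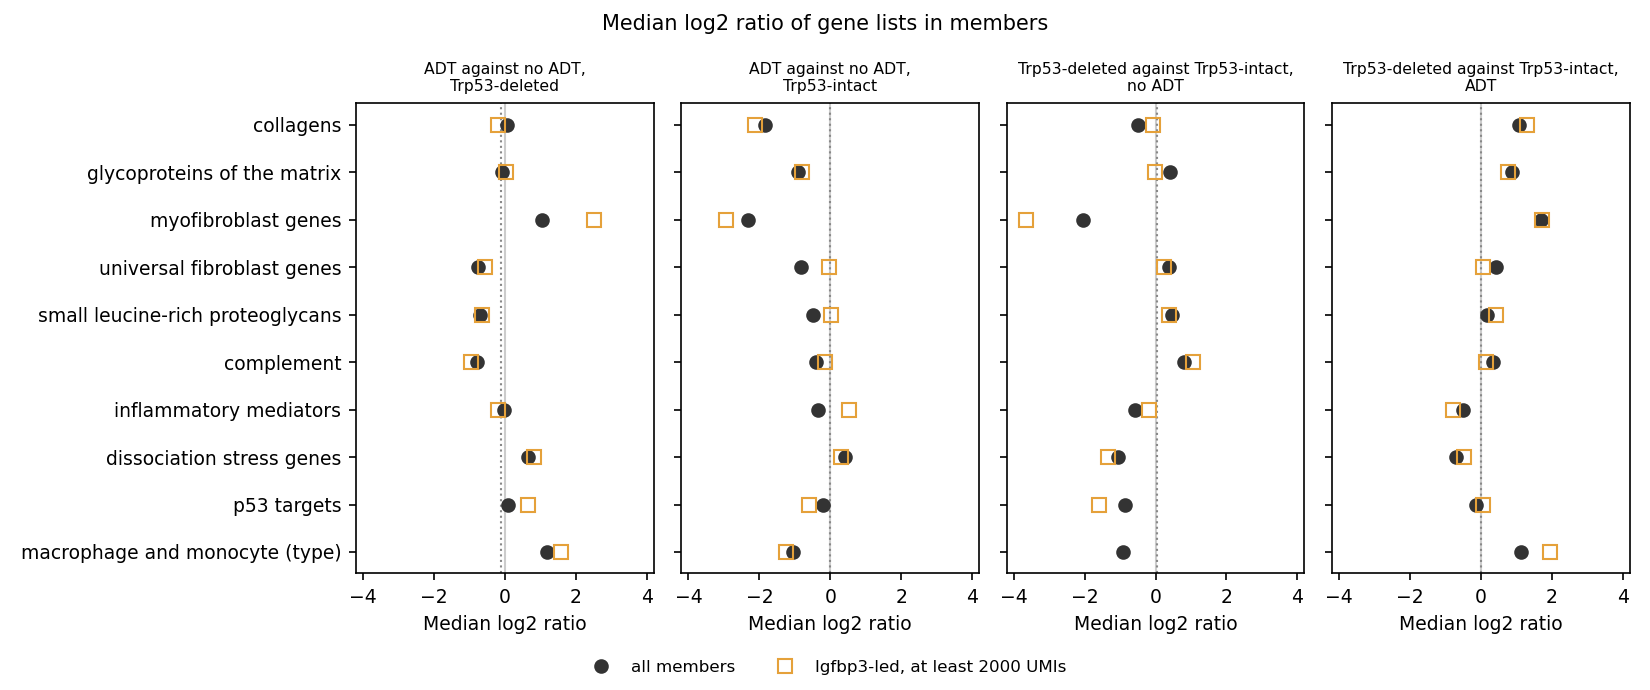
Median log2 ratio (x axis) of 10 gene lists (y axis) in the 4 comparisons, for all members (filled circles) and for Igfbp3-led members of at least 2000 UMIs (open squares, where 3 or more genes were measured); the dotted line is the median of all measured genes. The medians include genes of the rule, without which the small leucine-rich proteoglycans lie at -0.07 in place of -0.71 in the first comparison. Collagens lie at 0.05 and -1.83 in the ADT comparisons, and myofibroblast genes at 1.06 and -2.33.

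The comparisons between genotypes use the same 4 libraries as those of ADT, so a library that is high or low enters a comparison of each kind. Without ADT, members of Trp53-deleted mice held less RNA of myofibroblast, stress and p53 target genes than those of Trp53-intact mice, and more of Apod, Gsn and C4b. This comparison is the shallowest, with 98 and 175 cells. Of 5131 measured genes, 259 (5.05%) were at least 2-fold higher and 301 (5.87%) at least 2-fold lower. Of 12 myofibroblast genes 8 were lower and 1 higher (median -2.04, and -3.66 in Igfbp3-led cells). Acta2 had 6.54 CPM in Trp53-deleted against 309 in Trp53-intact, where 18.3% of members held it and the 5 highest held 57.6% of the UMIs. Of 13 measured p53 targets 6 were lower and 0 higher, with a median of -0.87. Cdkn1a, the p53-induced inhibitor of cyclin-dependent kinases, had 52.3 against 207 CPM, Zmat3 14.7 against 51.1 and Bax, which promotes apoptosis, 67 against 151. The 5 highest cells held 71.9% and 43.6% of the Cdkn1a UMIs, and neutrophil-gate cells had 1025 and 773 CPM of it. Trp53 itself had 47.4 CPM in Trp53-deleted and 43.2 in Trp53-intact members, in 22.4% and 22.9% of the cells.

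Stress genes were lower in Trp53-deleted without ADT, 17 of 31 by 2-fold and 0 higher, with Hspa1b at 262 against 1169.6 CPM. Inflammatory mediators gave 11 of 28 lower and 2 higher, with Ptgs2 (cyclooxygenase-2) at 37.6 against 422 and Cxcl1 at 152 against 1203 CPM, but 5 of 18 lower and 5 higher in Igfbp3-led cells. Of all 2130 genes measured in Igfbp3-led cells, 148 were at least 2-fold higher. Neutrophil-gate cells had 7303 and 3616 CPM of Ptgs2. Higher in Trp53-deleted were Gsn at 18717 against 5254 CPM, a ratio of 3.56 (3.46 to 3.67), and Apod at 8352 against 1405. C4b, a complement component, had 2469 against 613 CPM, and of 13 complement genes outside the rule 4 were higher and 2 lower (median 0.75). Tgfbi, a matrix protein induced by TGF-beta, had 195 against 20.4 CPM, in 31.6% against 8% of members. Cxcl12, a chemokine of stroma, had 1606 against 482 CPM. Of 11 lipid genes 4 were higher and 0 lower, with Lpl at 293 against 78.6. Matrix glycoproteins were divided, 14 of 53 higher and 11 lower. Of 6 epithelial genes 4 were lower.

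With ADT, members of Trp53-deleted mice held more RNA of collagens, other matrix proteins and myofibroblast genes than those of Trp53-intact mice, and less of metallothioneins and immediate-early genes. Both libraries are deep, with 543 and 843 cells. Of 10357 measured genes, 380 (3.67%) were at least 2-fold higher and 252 (2.43%) at least 2-fold lower. Of 26 collagens 16 were higher and 0 lower (median 1.08), and without those of the rule 13 of 22 (median 1.04). With the collagens of the rule, the median was 1.32 in Igfbp3-led cells and 0.92 with each cell counting equally. Bgn had 3789 CPM in Trp53-deleted ADT against 719 in Trp53-intact ADT, a ratio of 5.27 (5.1 to 5.44), and Sparc 5452 against 1035. Fn1 (fibronectin) had 1033 against 100.4 CPM in members, and 591 against 15.9 CPM in neutrophil-gate cells. Postn (periostin, a matrix protein of remodelling tissue) had 514 against 52.4 CPM, and 195 against 1.38 in neutrophil-gate cells, whereas Mfap4 had 860.0 against 80.6 and 9.18 against 1.84. Of 56 matrix glycoproteins 25 were higher and 1 lower (median 0.88), and of 15 myofibroblast genes 11 were higher and 0 lower (median 1.70, and 1.02 with each cell counting equally). Cilp, a matrix protein known from cartilage, had 644 against 89 CPM, and Aspn (asporin, a small leucine-rich proteoglycan) 85.5 against 5.43. Of 25 Wnt ligands and modulators outside the rule 5 were higher and 0 lower.

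Proteases and their inhibitors outside the rule gave 8 of 30 higher and 1 lower, with Timp1 at 1244 against 243 CPM and Ctsk (cathepsin K, a collagen-cutting protease) at 253 against 60.3. Mmp3, a gene of the rule, had 909.8 against 743. Interferon response genes gave 8 of 33 higher and 0 lower, Ifi27l2a at 1824 against 389 CPM, but 3 higher and 2 lower of 32 in Igfbp3-led cells. Cell cycle genes gave 9 of 17 higher and 0 lower (median 1.04), with Top2a found in 9.02% against 1.66% of members, and a median of 0.13 in Igfbp3-led cells. Class II antigen-presentation genes gave 4 of 6 higher, and macrophage genes 8 of 11, with Lyz2 at 207 against 29 CPM in members and 2269 against 802 in neutrophil-gate cells. Of 6 endothelial genes 3 were higher, and of 11 epithelial genes 7 were lower. Cdkn2a-high tumour-like genes, with those of the rule, gave 4 of 6 higher and 0 lower. Outside the rule 1 of 3 was higher and 0 lower.

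Lower in Trp53-deleted ADT were both metallothioneins, with Mt1 at 1147 CPM against 10015 in Trp53-intact ADT, a ratio of 0.114 (0.111 to 0.118), and Mt2 at 427 against 4536. These were spread over the cells, since Mt2 was found in 50.1% against 91% of members. Of 31 stress genes 11 were lower and 0 higher (median -0.70), with Fosb at 1176 against 3239.6 CPM and Zfp36, which promotes decay of inflammatory mRNAs, at 432 against 1744. Inflammatory mediators gave 8 of 35 lower and 3 higher, with Tnfaip6 at 87 against 365 and Has1 at 78.7 against 317 CPM. Thbd (thrombomodulin, a brake on coagulation) had 66.1 against 342 CPM. Of 20 p53 targets outside the rule 0 were higher and 1 lower, with Cdkn1a at 125 against 283 CPM and Cdkn2a, a gene of the rule, at 68.2 against 5.29.

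**Figure D5:**
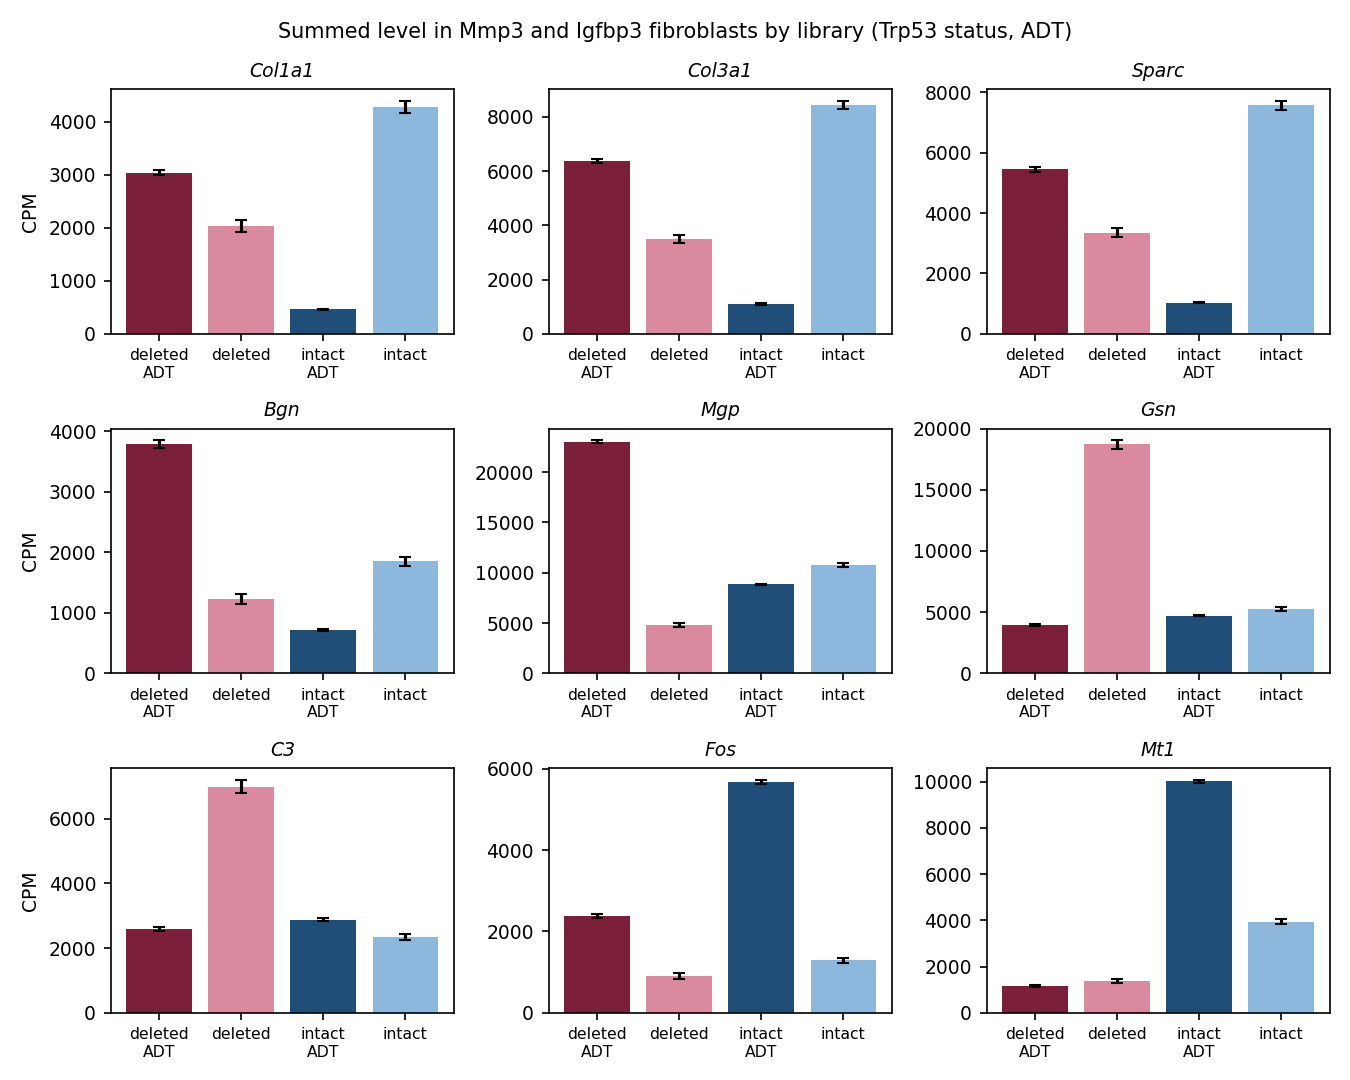
Summed level (y axis, CPM) of 9 genes in members of the 4 libraries (x axis), with exact Poisson 95% intervals for counting error. Col1a1, Col3a1 and Sparc are lowest in Trp53-intact ADT, Gsn and C3 are highest in Trp53-deleted, and Fos and Mt1 are highest in Trp53-intact ADT.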

How the data were processed

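Dissociated mouse prostates (collagenase II and TrypLE, per the labels' protocols) were profiled in 4 single-cell libraries, 1 per group. The authors deposited raw UMI counts per gene and cell barcode, for 30905 genes on mm10. The submitters' processing notes name Cell Ranger 2.1.1, whereas the deposited matrix headers carry 3.1.0. Cells were kept with at least 500 UMIs, 200 genes and at most 20% mitochondrial UMIs. Members and gene lists were chosen with earlier results of these data known. The comparisons with the Sult1e1 and C7 fibroblasts, between Mmp3-led and Igfbp3-led members and within Igfbp3-led members were added after the data were seen. In Igfbp3-led cells 5211 genes were measured for ADT in Trp53-deleted and 7928 in Trp53-intact mice. Between genotypes 2130 were measured there without ADT and 8755 with ADT. The shares of all genes past 2-fold given for members are not those of Igfbp3-led cells.

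UMIs were summed over the members of a library and divided to CPM. Log2 ratios used a pseudocount of 5 CPM, genes needed 50 UMIs or more in the 2 libraries compared to count as measured, and a gene was counted as higher or lower at 2-fold. Intervals are exact Poisson, conditional binomial or Clopper-Pearson at 95% and cover counting error only. Scrublet in scanpy 1.11.5 marked 1, 1, 0 and 0 cells by its automatic threshold, so it did not work here, and no doublets were removed. As an alternative the 816, 356, 529 and 609 cells of highest score were left out. Lists held 694 matched genes of 698.

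Genes named in each group comparison were the 10 highest and 10 lowest with at least 100 UMIs and a CPM at least 0.5 of that in other gated cell types, and up to 4 each way per list. Against other gate cells they were the 20 highest and 10 lowest. A few further genes were chosen after their values were seen. Calculations ran in Python 3.11.15 with numpy 2.4.6, scipy 1.17.1 and pandas 2.3.3. They were tested on simulated Poisson sums, which hold no differences between cells. The shift from composition was taken off there, whereas the reported ratios keep it. All 4 groups share a further engineered deletion that, like a few genes the naming rule picked, is not reported here, so the Trp53-intact mice are not wild type.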

Additional observations from a re-analysis of the deposited data

Results flagged for a closer look

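Opposite directions of at least 2-fold each, with ADT against no ADT in members, were found in Trp53-deleted and Trp53-intact mice for 22 of the genes reported. For 2 lists the medians were at least 0.5 from 0 on the log2 scale with opposite signs. Genes of the rule were left out of both, and smaller opposite changes are not given here. The difference between the genotypes was not tested, since each group has 1 library. The values that follow are the Trp53-deleted log2 ratio minus the Trp53-intact one. Contractile and myofibroblast genes gave 7.74 for Cthrc1, 6.32 for Tagln, 5.88 for Acta2 and 3.97 for Inhba. Genes of matrix and its assembly gave 5.35 for Ltbp2, 5.23 for Col12a1, 4.86 for Eln, 4.73 for Mfap4, 4.72 for Ctgf and 2.98 for Bgn. Carriers of IGF gave 6.79 for Igfbp2 and 3.096 for Igfbp7, and proteases and inhibitors 5.24 for Timp1 and 2.97 for Ctsk. Macrophage genes gave 3.25 for C1qc, 3.23 for C1qb, 2.84 for C1qa and 3.105 for Lyz2. The heat shock gene Hspb1 gave 4.35, the surface glycoprotein Thy1 3.13 and the interferon response gene Ifi27l2a 2.37. Tgfbi ran the other way, at -3.98. The values of Cthrc1 and Igfbp2 rest on 1.63 CPM in Trp53-deleted, from a single UMI each. Most Igfbp2 UMIs of Trp53-intact came from 5 cells. The 5 highest members held 54.7% of the Tagln UMIs in Trp53-deleted ADT, 85.7% in Trp53-deleted, 45% in Trp53-intact ADT and 60% in Trp53-intact, and the part of such cells in the difference was not tested.

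Among the lists, the median of myofibroblast genes was 1.06 in Trp53-deleted and -2.33 in Trp53-intact mice, a difference of 3.39. Macrophage and monocyte genes differed by 2.22, from medians of 1.18 in Trp53-deleted and -1.04 in Trp53-intact mice.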

How the results depend on the processing

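No paired analysis was possible because each group has 1 library. The comparisons over several libraries were repeated without each library, and where a value changed below, the cause was not tested unless stated. Depth limits the libraries without ADT most, where members are 98 and 175 cells. Among the genes picked as highest and lowest in the 4 group comparisons, 864 of 869 values under the alternatives kept their sign. Those genes were chosen for large ratios, so this count cannot show whether smaller changes or the other reported genes hold.

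The difference in the members' share of the gate, ADT minus no ADT, was 28.5 percentage points in Trp53-deleted mice. It was 20.4 with a threshold of 10 per 10000, 38.3 in cells of at least 2000 UMIs, 44.8 after thinning, 9.71 with at least 2 of the 3 genes, 22.4 without the Cdkn2a condition and 14.8 without the C7 condition. In Trp53-intact mice it was 45.3, and 38.3, 54.1, 58.1 and 28.5 under the first 4 of these and 35.9 without the C7 condition. Trp53-deleted minus Trp53-intact was -4.02 points without ADT, and -0.585 with at least 2 of the 3 genes and -0.0696 without the C7 condition. With ADT it was -20.8, and -26.5 without the Cdkn2a condition.

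Counts of genes past 2-fold depended on the setting. For ADT in Trp53-deleted mice, the higher genes were 606 with each cell counting equally and 541 with the CPM of neutrophil-gate cells taken off, and the lower genes 742 and 1414 under these and 732 with no minimum of UMIs. For ADT in Trp53-intact mice, the higher genes were 613 with a pseudocount of 1 CPM, 191 with 10 CPM, 586 with each cell counting equally, 673 with neutrophil-gate CPM taken off and 582 in Igfbp3-led cells, and the lower genes 1242 with neutrophil-gate CPM taken off. Between genotypes without ADT, the higher genes were 420 with each cell counting equally, 552 with neutrophil-gate CPM taken off, 868 with no minimum and 148 in Igfbp3-led cells, and the lower genes 823 with neutrophil-gate CPM taken off and 630 with no minimum. Between genotypes with ADT, the higher genes were 576 at 1 CPM and 625 with neutrophil-gate CPM taken off, and the lower genes 428 at 1 CPM, 160 at 10 CPM and 1139 with neutrophil-gate CPM taken off.

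Against other gate cells, 0 genes were higher at 10 CPM, 0 in cells of at least 2000 UMIs and 0 against other cells with little epithelial or mural RNA, and 135, 19 and 0 were lower at 1 CPM, at 10 CPM and against those cells. Without 1 library, the higher genes were 1 to 4 and the lower genes 49 to 65. Against Sult1e1 and C7 fibroblasts, the higher genes were 228 at 1 CPM and 87 at 10 CPM, and the lower genes 92 and 16. In Mmp3-led over Igfbp3-led cells, the lower genes were 72 at 1 CPM and 13 at 10 CPM. Without 1 library, the higher genes were 21 to 59 and the lower genes 38 to 99.

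Signs changed for a few values. In the ADT comparison of Trp53-deleted mice, Cenpf was at 0.15 in Igfbp3-led cells. There the list medians were -0.062 for Schwann genes with no minimum, -0.00265 for neutrophil genes at 10 per 10000 and -0.52 in deep members with 3 or more fibroblast genes, and -0.20 for the Cdkn2a-high genes, which include genes of the rule, with neutrophil-gate CPM taken off. In Trp53-intact mice, the endothelial median under ADT was 0.22 without the highest Scrublet scores. The Cdkn2a-high median between genotypes with ADT was -0.019 with neutrophil-gate CPM taken off. Without that step the Cdkn2a-high medians were 1.31 for ADT in Trp53-deleted mice and 1.96 between genotypes with ADT. Outside the rule they were 0.82 and 0.32, from 3 genes each. Against other gate cells chosen for little epithelial RNA, a choice that itself lowers these genes there, some genes called lower changed sign. The value given is the highest log2 ratio over the 4 libraries, and other libraries lay lower. It was 2.36 for Krt14, 2.65 for Krt15, 1.17 for Fxyd3, 2.45 for Lgals7 and 1.93 for Sfn. For Epcam it was 1.30, for Cldn4 1.04, for Dsp 1.57 and for Ly6d 1.30. In members of at least 2000 UMIs Lgals7 had 7.19 CPM against 55.4 in those cells of Trp53-deleted ADT, and 31.6 against 1.70 in Trp53-intact.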
